A study of Mus musculus with 6 samples.

Results

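The 10 genes described here encode enzymes that break down the branched-chain amino acids leucine, isoleucine and valine, together with the kinase that restrains this breakdown. They were taken as a fixed list of gene symbols, Bcat2, Bckdha, Bckdhb, Dbt, Bckdk, Ivd, Acadsb, Mccc1, Mccc2 and Hibch. All 10 were found among the 19938 genes that could be compared, each with a single probe set (a group of array probes summarised to 1 value) whose annotation names that gene alone. Expression was measured on Affymetrix Mouse Gene 1.0 ST arrays in primary mouse hepatocytes, the metabolic cells of the liver, transfected overnight with siRNA against RetSat (siRetSat, 3 arrays) or with control siRNA (siControl, 3 arrays). By the labels, all cells were of the C57BL/6J strain, the design text names a single wild-type male mouse aged 10 weeks, and each well received 1 nmol of siRNA with a Lipofectamine reagent. Cells of both groups were seeded in medium with 25 mM glucose and harvested 48 h after a change of medium on the morning after transfection. With cells of a single mouse, the p-values measure the spread between transfections and not between animals, and other effects of this siRNA cannot be told apart from loss of RetSat.

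Branched-chain amino acids first lose their amino group to a transaminase, which leaves branched-chain keto acids. The branched-chain keto acid dehydrogenase complex of the mitochondrion then removes carbon dioxide from all of these keto acids in a step that cannot run backwards, and it is the main point of control: a kinase switches the complex off by phosphorylating its E1 alpha subunit, and a phosphatase, Ppm1k, switches it back on. After this shared step each amino acid has enzymes of its own, and the products enter ketone body, cholesterol or citric acid cycle metabolism. Liver is known for low transaminase and high dehydrogenase activity, so that it mainly oxidises keto acids released by other tissues. In rat liver the glucose-responsive factor ChREBP is known to raise the kinase and lower the phosphatase.

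RetSat itself checks the labels. The deposited log2 intensity of Retsat was 4.62, 4.83 and 4.81 in siRetSat hepatocytes, against 6.80, 7.04 and 7.01 in siControl hepatocytes, which is a log2 fold change of -2.20 (limma, adjusted p = 0.000112). Of the 6 hepatocyte markers listed, 5 were measured and none passed the test (limma), with none at an unadjusted p under 0.05. Albumin (Alb) averaged 13.05 in siRetSat and 12.98 in siControl hepatocytes. The arrays numbered 1 stood apart from the others of their group. After group means were subtracted, the leading principal component held 61.5% of the variance. Its scores were 0.61, -0.19 and -0.42 for siRetSat 1, 2 and 3, and 0.49, -0.09 and -0.40 for siControl 1, 2 and 3. They followed the array number in the same order in both groups.

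RetSat depletion left most of these genes within the spread between transfections, and a single member passed the test. Bckdha, the E1 alpha subunit of the dehydrogenase complex, fell to 77.0% of the control level, a call that was lost in 9 of 14 alternative analyses, among them the omission of any single array. By limma, 1 of the 10 genes was lower and none was higher at an adjusted p under 0.05, where 1.66% of all 19938 genes were lower and 1.91% higher. At an unadjusted p under 0.05, 1 was higher and 2 were lower by limma, where 6.98% of all genes were higher and 7.52% lower. At the same unadjusted level of the two-tailed t-test that the methods name, 1 was higher and 1 lower, where 6.78% of all genes were higher and 7.30% lower. With the p of limma in place of the t-test, Bckdha was also the only member that was lower at the study's cutoffs. These were an unadjusted p under 0.05 and a log2 fold change of at least 0.32 in size. In that direction 4.58% of all genes met them. The log2 fold change was above 0 for 7 members and below 0 for 3, with a median of 0.12, where the median of all genes was 0.00.

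**Figure D1:**
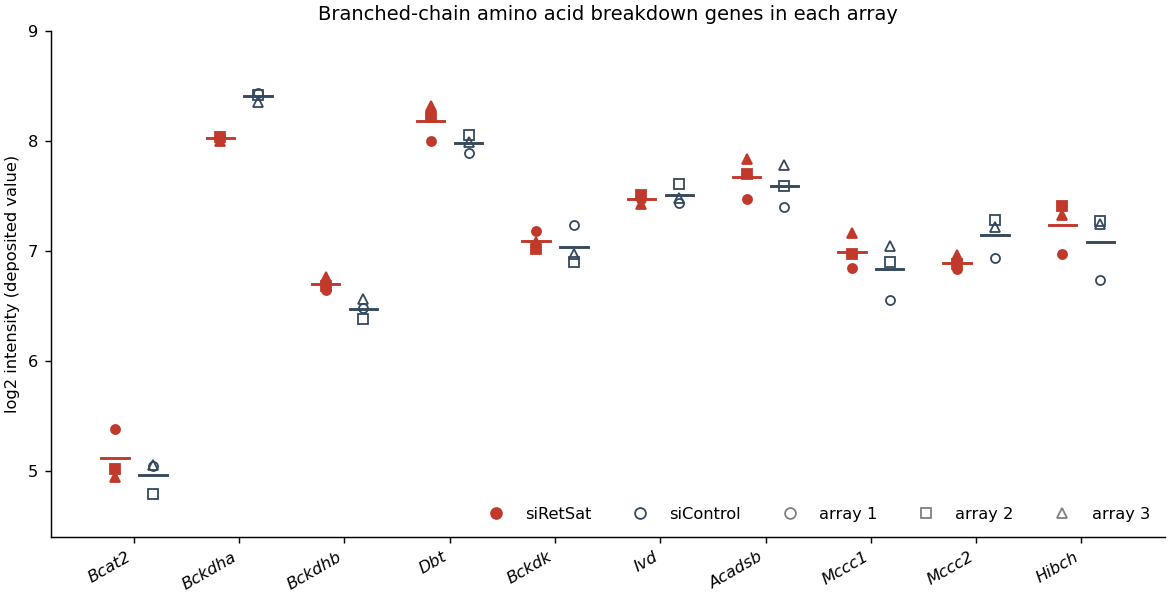
Deposited log2 intensity (y axis) of the 10 genes (x axis) in each array, with siRetSat as filled red marks left of siControl as open blue marks, the mark shape giving the array number and horizontal bars the means of 3 arrays. For Bckdha the siRetSat arrays lie at 8.00 to 8.05 and the siControl arrays at 8.36 to 8.44, and for Bckdhb the order is turned round, with 6.65 to 6.76 in siRetSat and 6.38 to 6.56 in siControl.

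Bcat2 encodes the mitochondrial transaminase of the first step. Its log2 intensity was 5.38, 5.02 and 4.94 in siRetSat, against 5.04, 4.79 and 5.05 in siControl hepatocytes. The groups overlapped, and siRetSat 1 was the only array well above the rest. The log2 fold change was 0.15 (95% interval -0.16 to 0.47, adjusted p = 0.756 from limma), and it was 0.02 without siRetSat 1. Its cytosolic relative Bcat1 had a mean over all arrays of 3.97, below the value of 4.33 under which the dimmest 40% of genes lie.

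Of the 4 subunit genes of the dehydrogenase complex, Bckdha, Bckdhb, Dbt and Dld, Bckdha alone passed the test. Bckdha had a log2 intensity of 8.05, 8.04 and 8.00 in siRetSat, against 8.44, 8.42 and 8.36 in siControl hepatocytes. The arrays of each group lay close together and the groups were separated by 0.31. The log2 fold change was -0.38 (standard error 0.0804, 95% interval -0.56 to -0.19, adjusted p = 0.0448 from limma). Fewer cells that express the gene and less RNA per cell cannot be told apart in such bulk RNA. This call lies close to the threshold. The adjusted p was above it on omission of any of the 6 arrays (0.0662 to 0.193), with every array set to the same median (0.109) and after a further quantile normalization (0.0765), while the log2 fold change stayed between -0.40 and -0.34. Beside it, of 8 macrophage markers Cd14 alone was higher (log2 fold change 0.59) and none was lower. Cd68 lay just short of the threshold (0.40, adjusted p = 0.0563 from limma). The mean log2 intensity of that list ranged from 5.20 to 5.34 in siRetSat and from 5.04 to 5.12 in siControl arrays, with 5 of the 8 below 4.33. Of 8 stellate cell and fibroblast markers 2 were lower, Acta2 (log2 fold change -2.40) and Tagln (-1.46), and none was higher. The log2 fold change was above 0 for 5 of the 8 and below 0 for 3. Their list means were 5.24 to 5.84 in siRetSat and 5.71 to 5.88 in siControl arrays. Of 4 bile duct markers 1 was higher, Sox9, with list means of 5.88 to 6.02 in siRetSat and 5.83 to 5.91 in siControl arrays. None of 5 endothelial markers passed by limma, with 1 at an unadjusted p under 0.05 and list means of 4.97 to 5.12 in siRetSat and 4.92 to 5.04 in siControl arrays. The part of these markers in the fall of Bckdha was not tested.

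**Figure D2:**
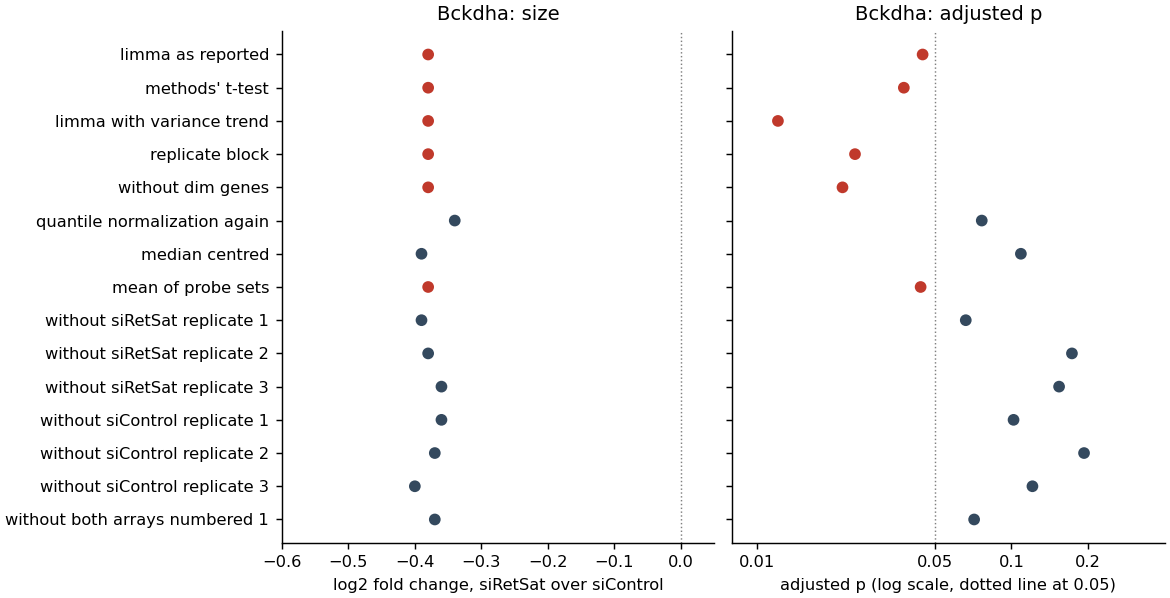
Log2 fold change of Bckdha, siRetSat over siControl (left x axis), and its adjusted p on a log axis (right x axis) in the fit as reported and in 14 other analyses (rows), with red points past the dotted line at 0.05 and blue points not past it. The size stays between -0.40 and -0.34 throughout, whereas the adjusted p runs from 0.0121 with a variance trend to 0.193 without siControl 2.

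Bckdhb, the E1 beta subunit that pairs with E1 alpha in the same enzyme, lay on the other side. Its log2 intensity was 6.65, 6.68 and 6.76 in siRetSat, against 6.48, 6.38 and 6.56 in siControl hepatocytes. The groups did not overlap, with a gap of 0.09, but the gene did not pass the test (log2 fold change 0.22, 95% interval 0.02 to 0.43, adjusted p = 0.293 from limma). Groups that do not overlap were found for 1 member in each direction, Bckdhb higher and Bckdha lower, where 9.33% of all genes were higher and 10.1% lower in this sense. Dbt, the E2 subunit that carries the lipoyl arm and hands on the acyl group, had 8.00, 8.22 and 8.32 in siRetSat, against 7.89, 8.06 and 7.99 in siControl hepatocytes. Its groups overlapped through siRetSat 1, and the log2 fold change was 0.20 (95% interval -0.05 to 0.45, adjusted p = 0.483 from limma). Dld, the E3 subunit shared with other keto acid dehydrogenases, had a log2 fold change of 0.02 (95% interval -0.28 to 0.32, adjusted p = 0.985 from limma).

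The E1 subunits were also compared within arrays, where differences common to a whole array cancel. This comparison was chosen after the values were seen. Levels of different probe sets are not comparable, so that only the change between the groups has a meaning. The log2 value of Bckdha minus that of Bckdhb was 1.40, 1.36 and 1.24 in siRetSat, against 1.96, 2.04 and 1.80 in siControl hepatocytes. It differed between the groups by -0.60, and no siRetSat array reached any siControl array. The two-sided exact permutation test gave p = 0.1, the smallest that 3 against 3 arrays allow, and 0.15 when adjusted over the 3 gene pairs compared in this way. Each gene's groups were already apart, in opposite directions. This separation and this p were therefore fixed when the pair was chosen, and they add no support.

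Promoters of the members were read from RefSeq (build GRCm38.p6), which held 11 start sites for 9 of the 10 genes. Each window holds 250 bases before and 50 after the annotated start. Both strands were searched for the E-box CACGTG, whose letters recur in the sites that ChREBP binds, for the CCAAT box CCAAT, for the GC box GGGCGG and for the consensus of the carbohydrate response element. The CCAAT box, the GC box and the windows printed were chosen after the expression values were seen. The windows of Bckdha and Bckdhb are shown because these partner subunits lay on opposite sides, and that of Mccc2 because it is the only one of the 11 with CACGTG. Capitals mark every match to the 4 motifs. Bckdha lies at chr7:25658712-25659011 on the minus strand, Bckdhb (the first of 2 start sites) at chr9:83924887-83925186 on the plus strand and Mccc2 at chr13:100015590-100015889 on the minus strand.
Bckdha: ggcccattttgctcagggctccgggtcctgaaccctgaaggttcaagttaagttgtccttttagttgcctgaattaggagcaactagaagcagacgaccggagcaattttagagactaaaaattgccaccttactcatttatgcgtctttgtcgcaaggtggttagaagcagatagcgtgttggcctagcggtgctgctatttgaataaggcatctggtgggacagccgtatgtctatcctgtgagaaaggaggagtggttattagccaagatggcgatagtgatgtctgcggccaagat
Bckdhb: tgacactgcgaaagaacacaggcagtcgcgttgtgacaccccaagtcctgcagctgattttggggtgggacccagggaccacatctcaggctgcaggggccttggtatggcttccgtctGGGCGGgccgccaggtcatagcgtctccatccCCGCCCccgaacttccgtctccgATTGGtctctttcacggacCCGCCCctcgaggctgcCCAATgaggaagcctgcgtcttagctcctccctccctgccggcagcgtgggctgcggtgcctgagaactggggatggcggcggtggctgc
Mccc2: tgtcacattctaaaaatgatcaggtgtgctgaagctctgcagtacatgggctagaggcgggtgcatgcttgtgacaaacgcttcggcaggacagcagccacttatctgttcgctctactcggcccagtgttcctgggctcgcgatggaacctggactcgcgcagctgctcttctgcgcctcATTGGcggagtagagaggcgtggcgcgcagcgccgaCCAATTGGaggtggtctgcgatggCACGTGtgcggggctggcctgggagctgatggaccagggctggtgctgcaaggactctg

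The Bckdha window held no match to any of the 4 motifs, and 48.0% of its bases were G or C. The Bckdhb window held 2 CCAAT boxes and 3 GC boxes, with 65.0% G or C. The Mccc2 window held 1 E-box just before the annotated start and 3 CCAAT boxes, a pair of which overlap on opposite strands. Among all 32851 promoters of the table, 7.15% held the E-box, 37.4% the CCAAT box, 35.7% the GC box and 0.119% the carbohydrate response element consensus. Of the 9 members with a window, 1 held the E-box, 5 the CCAAT box, 4 the GC box and 0 the consensus. These are matches of letters, and binding was not measured. In RefSeq the start of Exosc5, an RNA exosome gene, lies close to that of Bckdha on the other strand and points away from it. Exosc5, named after its value was seen, had 7.40, 7.29 and 7.43 in siRetSat, against 7.93, 7.50 and 7.41 in siControl hepatocytes. Its groups overlapped and it did not pass (log2 fold change -0.24, adjusted p = 0.535 from limma).

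Bckdk, the kinase that inhibits the complex, showed no change beyond the spread between transfections. Its log2 intensity was 7.18, 7.02 and 7.08 in siRetSat, against 7.24, 6.90 and 6.97 in siControl hepatocytes. The groups overlapped, and array 1 was the highest in both. The log2 fold change was 0.06 (95% interval -0.20 to 0.31, adjusted p = 0.922 from limma). Ppm1k, the phosphatase that opposes it, spread more widely, with 5.79, 5.94 and 6.47 in siRetSat, against 5.49, 6.27 and 6.24 in siControl hepatocytes. Its log2 fold change was 0.07 (95% interval -0.49 to 0.62, adjusted p = 0.966 from limma). The log2 value of Bckdk minus that of Ppm1k was 1.39, 1.08 and 0.61 in siRetSat, against 1.75, 0.63 and 0.73 in siControl hepatocytes. This differed between the groups by -0.01 (two-sided exact permutation test, p = 0.9, and 0.9 adjusted over 3 pairs). The interval of Ppm1k reaches beyond the fold change of Bckdha on both sides of 0, so that a change of that size could not be detected for it.

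**Figure D3:**
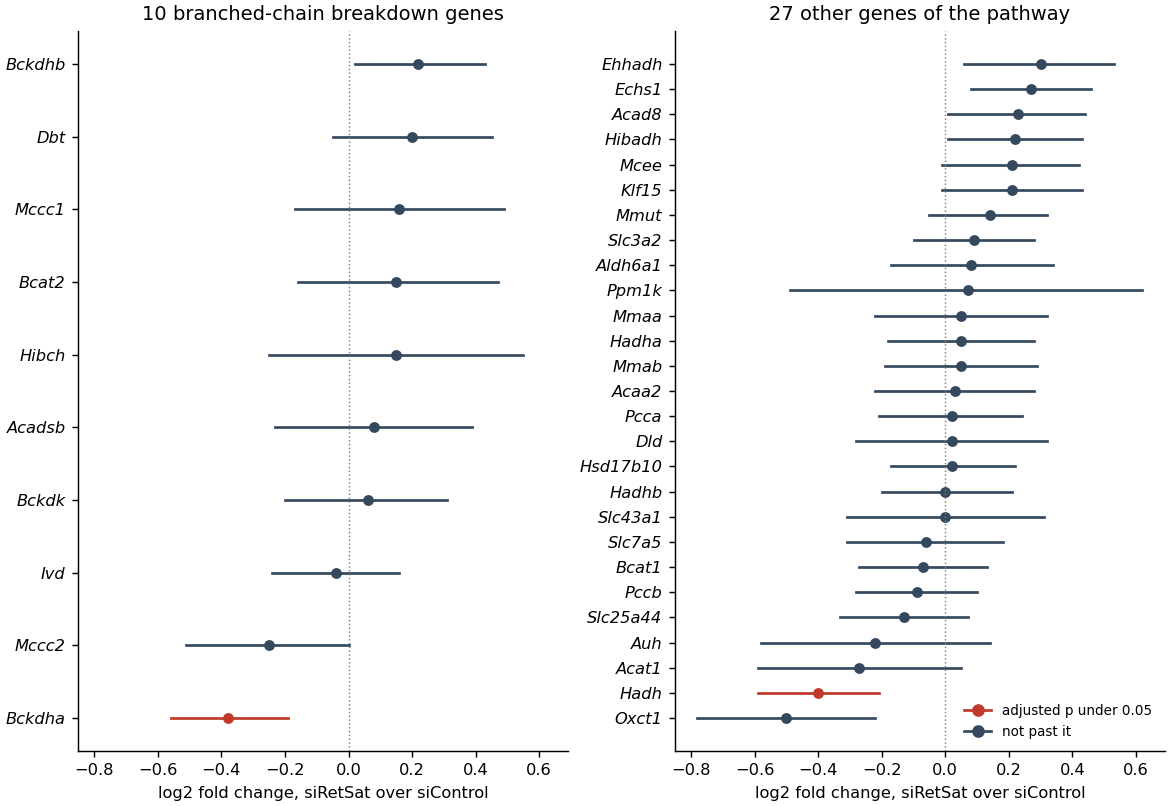
Log2 fold change of siRetSat over siControl (x axis) with its 95% interval from limma, for the 10 genes on the left and 27 other genes of the pathway on the right, ordered by size. Red marks the genes at an adjusted p under 0.05, Bckdha at -0.38 and Hadh at -0.40. Blue marks the genes that did not pass.

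In the leucine branch none of the 3 members passed. Ivd, the isovaleryl-CoA dehydrogenase, had a log2 intensity of 7.47, 7.51 and 7.43 in siRetSat, against 7.44, 7.61 and 7.48 in siControl hepatocytes. All 6 values lay within a narrow band and the groups overlapped (log2 fold change -0.04, 95% interval -0.24 to 0.16, adjusted p = 0.934 from limma). The next enzyme, methylcrotonyl-CoA carboxylase, is built from the products of Mccc1, the biotin-carrying alpha subunit, and Mccc2, the beta subunit. Mccc1 had 6.85, 6.97 and 7.16 in siRetSat, against 6.55, 6.90 and 7.05 in siControl hepatocytes. Its groups overlapped, with siControl 1 the lowest array (log2 fold change 0.16, 95% interval -0.17 to 0.49, adjusted p = 0.764 from limma), and without siControl 1 the log2 fold change was 0.02. Mccc2 had 6.84, 6.88 and 6.96 in siRetSat, against 6.94, 7.28 and 7.22 in siControl hepatocytes. Here siControl 1 lay among the siRetSat arrays, and siControl 2 and 3 above them. The log2 fold change of Mccc2 was -0.25 (95% interval -0.51 to -0.00, unadjusted p = 0.0493 from limma). This fold change passed neither the adjusted threshold (adjusted p = 0.342 from limma) nor the study's cutoff on the fold. Without siControl 1 it was -0.36 (adjusted p = 0.117 from limma). Of the 4 genes from Ivd to Auh, which hydrates the carboxylated product, 1 lay above 0 and 3 below.

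The carboxylase subunits were compared within arrays as the E1 subunits had been, again after their values were seen. The log2 value of Mccc2 minus that of Mccc1 was -0.01, -0.09 and -0.20 in siRetSat, against 0.39, 0.38 and 0.17 in siControl hepatocytes. The groups of these differences did not overlap, although those of each gene did. The change between the groups was -0.41 (p = 0.1 in the same two-sided exact permutation test, and 0.15 adjusted over 3 pairs). Without both arrays numbered 1 the change was -0.42. The pair was chosen on these same values, so that this p is no support for a change. How often other gene pairs separate in this way was not counted.

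The members of the isoleucine and valine branches did not pass either. Acadsb, the short and branched-chain acyl-CoA dehydrogenase that acts on the isoleucine product, had 7.47, 7.70 and 7.84 in siRetSat, against 7.40, 7.59 and 7.78 in siControl hepatocytes. Both groups covered nearly the same range (log2 fold change 0.08, 95% interval -0.23 to 0.39, adjusted p = 0.897 from limma). Hibch, which frees 3-hydroxyisobutyrate from its CoA ester in valine breakdown, had 6.97, 7.41 and 7.33 in siRetSat, against 6.74, 7.27 and 7.25 in siControl hepatocytes. Array 1 was the lowest of each group, and the groups overlapped (log2 fold change 0.15, 95% interval -0.25 to 0.55, adjusted p = 0.835 from limma). Without siControl 1 the log2 fold change was -0.02 for Hibch and -0.02 for Acadsb.

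The members shared part of their spread between arrays of the same number. Array 1 was the lowest array of both groups for 5 members (Dbt, Acadsb, Mccc1, Mccc2 and Hibch), as it was for 20.7% of all genes, and the highest of both for 2 (Bckdha and Bckdk), as for 27.7%. For Hibch, array 1 lay 0.40 below the mean of arrays 2 and 3 in siRetSat and 0.52 below it in siControl hepatocytes. For Mccc1 the same gap was 0.21 in siRetSat and 0.42 in siControl hepatocytes, and for Acadsb 0.30 in siRetSat and 0.29 in siControl hepatocytes. Bckdha had the narrowest spread of the 10 genes in both groups, with a range of 0.05 in siRetSat and 0.08 in siControl hepatocytes. Without both arrays numbered 1 its log2 fold change was -0.37 (adjusted p = 0.0714 from limma).

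**Figure D4:**
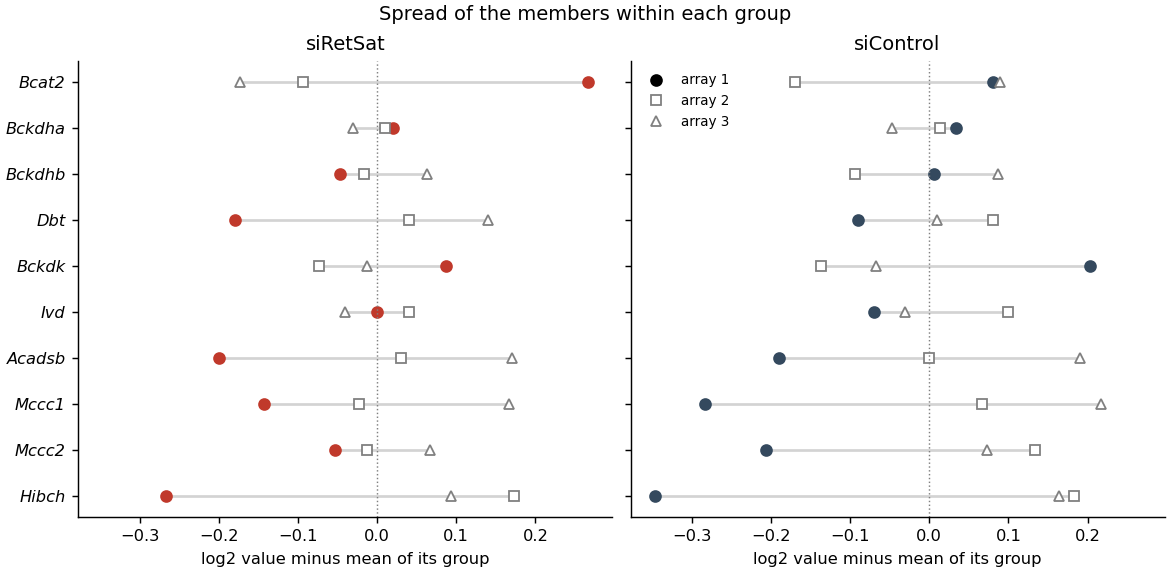
Each array's log2 value minus the mean of its group (x axis) for the 10 genes, with siRetSat on the left and siControl on the right. Filled circles are array 1, squares array 2 and triangles array 3, and array 1 is the lowest of both groups for 5 genes, furthest for Hibch.

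A further 27 genes of the pathway, which comprise other enzymes, carriers and regulators, were measured. At an adjusted p under 0.05 from limma, 1 was lower, none was higher and 26 did not pass, while 4 were higher and 2 lower at an unadjusted p under 0.05, where 6.98% of all genes were higher and 7.52% lower. The two-tailed t-test called none after adjustment, and at an unadjusted p under 0.05 it gave 6 higher and 2 lower, where 6.78% of all genes were higher and 7.30% lower. The median log2 fold change was 0.03. The gene that fell was Hadh, a dehydrogenase of short-chain 3-hydroxyacyl-CoA that serves mainly fatty acid oxidation. Hadh had 9.80, 9.90 and 9.88 in siRetSat, against 10.27, 10.29 and 10.21 in siControl hepatocytes. The groups were 0.31 apart, and the log2 fold change was -0.40 (adjusted p = 0.041 from limma), a call that was lost on omission of any array (adjusted p = 0.0773 to 0.188) and with median centring (0.134). Oxct1, which activates ketone bodies for use as fuel and is known to be scarce in hepatocytes, had 7.48, 7.59 and 7.66 in siRetSat, against 7.83, 8.24 and 8.16 in siControl hepatocytes. Its mean over all arrays was nonetheless brighter than that of 82.2% of genes. The groups of Oxct1 did not overlap. With the p of limma it met the study's cutoffs but not the adjusted threshold (log2 fold change -0.50, adjusted p = 0.0744 from limma). It passed that threshold without siControl 1 (adjusted p = 0.028 from limma).

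Some other genes of the pathway lay slightly higher without passing the test. At an unadjusted p under 0.05, the limma count of higher genes among the 27 depended on the processing. It was 0 with median centring, 1 to 3 on omission of an array and 6 with the replicate number as a block. At that level 2 to 4 were lower in these fits. With median centring no member was higher either. In 8 of the 27 every siRetSat array lay above every siControl array, and in 3 every one lay below, where 9.33% and 10.1% of all genes did so. These 8 were Acad8, Echs1, Hibadh, Ehhadh, Mcee, Mmut, Slc3a2 and Klf15. The valine, propionate and isoleucine enzymes were grouped after the values were seen. So were the genes from Ivd to Auh and the subunit genes of the dehydrogenase complex above. The 5 enzymes that take the valine product onward after the dehydrogenase complex (Acad8, Echs1, Hibch, Hibadh and Aldh6a1) had log2 fold changes from 0.08 to 0.27, with 0 past the adjusted threshold and 3 at an unadjusted p under 0.05 by limma, where 6.98% of all genes were higher at that level. The 6 genes of the propionate branch (Pcca, Pccb, Mcee, Mmut, Mmaa and Mmab) had log2 fold changes from -0.09 to 0.21, with 0 past either threshold, and the groups overlapped for 4 of them. The 4 enzymes grouped for isoleucine (Acadsb, Echs1, Hsd17b10 and Acat1) share Echs1 with the valine group. Their log2 fold changes ran from -0.27 to 0.27, 3 above 0 and 1 below, with 0 past the adjusted threshold. Echs1, the short-chain enoyl-CoA hydratase, had 8.46, 8.52 and 8.57 in siRetSat, against 8.21, 8.27 and 8.27 in siControl hepatocytes. Its groups were 0.19 apart (log2 fold change 0.27, adjusted p = 0.154 from limma). Hibadh, which oxidises the 3-hydroxyisobutyrate that Hibch releases, had 9.95, 10.02 and 9.99 in siRetSat, against 9.64, 9.85 and 9.80 in siControl hepatocytes (log2 fold change 0.22, adjusted p = 0.303 from limma). Hibadh has 2 probe sets, and these values are of the brighter. With the mean of probe sets, 3 of the 27 genes were higher at an unadjusted p under 0.05 by limma. Klf15, a transcription factor known to drive branched-chain amino acid breakdown, had 6.38, 6.18 and 6.21 in siRetSat, against 6.16, 6.00 and 5.98 in siControl hepatocytes. Its groups were barely separated (log2 fold change 0.21, 95% interval -0.01 to 0.43, adjusted p = 0.388 from limma).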

How the data were processed

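RNA of 6 wells, 3 siRetSat and 3 siControl, was amplified from 100 ng and hybridised to 6 arrays. The values the authors deposited are normalized log2 intensities of 35556 probe sets, from 1.46 to 13.7, with array medians of 4.29 to 4.50. The submitters' processing notes name RMA (background correction, quantile normalization and probe summary) and Partek 6.6. Probe annotation version, build and filters: not given in the sources used here. RMA is meant to make the arrays' distributions alike, but the medians of the deposited values still differed between arrays. It also tends to compress small differences of dim genes.

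Probe sets were named by the platform annotation (21789 with 1 symbol, 1621 with several, 12146 with none) and symbols updated by Entrez identifier through RefSeq for GRCm38.p6. The probe set with the highest mean over the 6 arrays stood for each of 19938 genes. The groups were compared over all genes with R 4.3.3 and limma 3.58.1 (lmFit, eBayes), as siRetSat minus siControl without covariates, with p-values adjusted by Benjamini-Hochberg and a threshold of 0.05. Within-array differences of gene pairs were tested by exact permutation (SciPy 1.17.1). This fit was also tested on simulated data. Replicates are separate transfections by the study's methods, and the number of arrays limits the precision.

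The 10 genes, the other lists and the tests were chosen with earlier results of these data known. Named were the 10 genes, Retsat, Ppm1k and other pathway genes past the adjusted threshold or the study's cutoffs with the p of limma. Further genes were named after their values were seen. Alternatives were the methods' t-test, a trend in the variance, a block for the replicate number, omission of dim genes (below the 40th percentile), a further quantile normalization, median centring, averaging all probe sets of a gene and omission of arrays. Same-numbered arrays correlated in their deviations from the group means at 0.547, 0.0398 and 0.541, so that the numbers were not taken to pair the samples.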

Additional observations from a re-analysis of the deposited data

How the results depend on the processing

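The fall of Bckdha kept its direction in all 14 alternatives, at -0.40 to -0.34, and passed in 5 of them. It passed with the t-test, the variance trend, the block and without dim genes. It also passed with the mean of probe sets, which leaves the single probe set of Bckdha unchanged. It was not past the threshold after a further quantile normalization (-0.34), with median centring (-0.39), without both arrays numbered 1 (-0.37) or on omission of any single array (-0.40 to -0.36), so that the number of lower members was 0 in these. Omission leaves fewer arrays, and the cause of the other losses was not tested. No other member passed in any alternative. Among members that did not pass, the sign turned only on omission of an array, with ranges of -0.01 to 0.16 for Bckdk, -0.07 to 0.01 for Ivd, -0.02 to 0.18 for Acadsb and -0.02 to 0.28 for Hibch.

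The number of all genes past the threshold was 710, against 196 with the t-test, 1078 with the variance trend, 342 with median centring, 207 to 646 on omission of an array and 1541 with the replicate number as a block. With that replicate block Bckdha stayed at -0.38 (adjusted p = 0.0243 from limma) and Oxct1 passed (0.0153). The arrays numbered 1 and 3 correlated best with their own number and those numbered 2 did not, which is a hint from the data and not from the design. Oxct1 also passed with the variance trend, without dim genes, after quantile normalization and without both arrays numbered 1.

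The change of Bckdha minus Bckdhb kept its sign in 10 alternatives (-0.67 to -0.55), as did Mccc2 minus Mccc1 (-0.49 to -0.36). Both pairs were chosen on these values and their groups did not overlap, so that omission of arrays could not turn the sign. Median centring cancels within an array, and averaging leaves single probe sets as they were. The kept sign is therefore no support for a change. The change of Bckdk minus Ppm1k, at -0.01, was 0.01 after quantile normalization, 0.16 without both arrays numbered 1 and -0.21 to 0.35 on omission of an array.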
